A study of Homo sapiens with 6 samples.

Results

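The genes described are 10 components of the TGF-beta pathway, found by NCBI Gene ID among the 16623 genes of the files. They are the ligands TGFB1, TGFB2, TGFB3 and INHBA, the receptors TGFBR1, TGFBR2 and TGFBR3, and the SMADs SMAD3, SMAD6 and SMAD7. All 10 were found, and 8 of them reached 1 FPKM in any library. TGFB3 and INHBA did not. FPKM divides the fragments of a gene by its transcript length and by the mapped total, so different genes can be compared approximately. The transcript lengths behind the deposited values are not known here, and ratios between genes below carry that limit.

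RNA was sequenced from MDA-MB-231, an established line of human triple-negative breast cancer cells with a mesenchymal form. The cells received PCI-24781, a hydroxamic acid that blocks histone deacetylases (HDACs), at 100 nM or 200 nM, or the solvent DMSO. Treatment lasted 24 h or 48 h, which gave 6 libraries with 1 library per condition. No difference between conditions therefore has a replicate check, no test was run, and no p-value is given. In bulk RNA, more cells with a transcript and more transcript per cell cannot be told apart.

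TGF-beta ligands are secreted in a latent complex and, once released, bind the type II receptor TGFBR2, which recruits and phosphorylates the type I receptor TGFBR1. The activated pair phosphorylates SMAD2 and SMAD3, which join SMAD4 and enter the nucleus to regulate target genes, while SMAD6 and SMAD7 inhibit the signal and are themselves targets of it. In normal epithelium the pathway restrains growth, and in advanced carcinomas it is known for its part in invasion, mesenchymal change and metastasis, for which MDA-MB-231 is a widely used model. Messenger RNA levels report neither ligand release nor SMAD phosphorylation.

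Most markers of the cell line were as its description gives them, while ERBB2 and EPCAM, expected to be low, were detected in every library. VIM was between 1629.38 and 2053.39 FPKM, while the hormone receptor genes ESR1 and PGR did not exceed 0.04 and E-cadherin (CDH1) did not exceed 0.39. Of 6 marker genes of other cell types found in the files, CDH5, DCN, COL3A1 and KRT5 stayed at or below 0.33 FPKM in every library, PTPRC lay between 0.76 and 1.01, and PECAM1 between 0.38 and 2.33. KRT14 of the same list was not found among the gene IDs. The summed level of these 6 genes was 1.60 FPKM in DMSO 24 h, the lowest, and 3.69 at 200 nM 48 h, the highest, and its part in the results was not tested. ERBB2, expected at low level in a triple-negative line, lay between 13.16 and 21.36, and the epithelial marker EPCAM between 2.26 and 4.70. No cutoff for a low level was set and no other line was compared, so these values do not show a departure from the description. The depth was inferred from steps between low values as about 15700000 to 17900000 fragments per library. The libraries did not order by dose at 48 h. Of 523 genes at least 2-fold higher at 200 nM than in DMSO at 24 h, 441 were below DMSO 48 h at 100 nM, with a median log2 difference of -0.3, and 498 were above it at 200 nM, with a median of 0.37. The same genes had a median of 0.76 in DMSO 48 h against DMSO 24 h, a comparison that shares the DMSO 24 h library by which they were picked. Culture time, the handling of a library and its label cannot be told apart for DMSO 24 h, DMSO 48 h and 100 nM 48 h. Each of the 8 expressed genes and, at 200 nM 24 h, each list is therefore given against both DMSO libraries, and single genes of the lists against DMSO of the same time.

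The upstream sequences of the pair of ligands that were expressed are shown first. Whether these bases bear on the levels of the genes was not tested. Each run is the 250 bases before the transcription start, on the strand of the gene, from RefSeq on GRCh38.p14. Capitals mark letters searched on both strands: CAGAC, the core of the element that SMAD3 and SMAD4 bind, GTCTAGAC, its palindromic form, GGGCGG, the GC box, and TATAAA, the TATA box. TGANTCA, the AP-1 element, and TGACGTCA, the cAMP response element, were also searched and are in none of the 3 windows shown here. The first is TGFB2 (chr1:218345086-218345335, plus strand), and the second TGFB1 (chr19:41353923-41354172, minus strand).
TGFB2: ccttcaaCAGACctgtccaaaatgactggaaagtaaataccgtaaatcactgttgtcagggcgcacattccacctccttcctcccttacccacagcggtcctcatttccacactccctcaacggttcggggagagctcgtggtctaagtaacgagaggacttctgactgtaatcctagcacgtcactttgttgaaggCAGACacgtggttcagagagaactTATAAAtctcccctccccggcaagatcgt
TGFB1: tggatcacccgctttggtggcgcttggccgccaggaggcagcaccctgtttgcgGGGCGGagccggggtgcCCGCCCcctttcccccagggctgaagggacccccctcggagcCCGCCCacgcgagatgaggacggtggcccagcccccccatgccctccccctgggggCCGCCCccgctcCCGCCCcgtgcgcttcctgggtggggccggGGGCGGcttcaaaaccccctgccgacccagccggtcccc
TGFB2 had TATAAA beginning 29 bases before the start, found in 10.7% of all 35116 windows of the same length, and CAGAC beginning 53 and 243 bases before it, found in 38% of windows. It had no GGGCGG and a GC content of 50.4%. TGFB1 had 6 copies of GGGCGG, which 42.6% of windows hold, neither TATAAA nor CAGAC, and a GC content of 76.8%, against a median of 58% over all windows. The matches are a description of letters in these windows and were not tied to any measured binding.

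Among the ligands, TGFB2 varied most with treatment. TGFB2 lies on chromosome 1 from 218518676 to 218617961 on the plus strand in hg19, the build of the deposited coordinates. Its FPKM measured 23.73 in DMSO, 36.68 at 100 nM and 47.47 at 200 nM at 24 h, and 33.02 in DMSO, 27.90 at 100 nM and 50.25 at 200 nM at 48 h. Both 200 nM libraries were the highest and DMSO 24 h the lowest, and the 100 nM library lay above its DMSO library at 24 h and below it at 48 h. Against DMSO of the same time, the difference in log2(FPKM + 1) was 0.61 for 100 nM and 0.97 for 200 nM at 24 h, then -0.24 for 100 nM and 0.59 for 200 nM at 48 h. At 200 nM this was a 1.96-fold and a 1.51-fold difference in FPKM + 1, just under 2-fold at 24 h. The plain FPKM ratio at 24 h was 2.0. Between the doses, 200 nM was above 100 nM by 0.36 at 24 h and 0.83 at 48 h. Exchanging the DMSO libraries left 200 nM above its reference at both times, by 0.51 at 24 h and 1.05 at 48 h, and put 100 nM above it by 0.15 at 24 h and 0.22 at 48 h. In order of level, all neighbouring libraries of TGFB2 differed beyond their 95% Poisson intervals except 200 nM 24 h and 200 nM 48 h, whose intervals were 46.02 to 48.95 and 48.69 to 51.85. These intervals rest on about 2111 to 4057 fragments per library and cover counting error only.

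TGFB1, the most abundant of these ligands and the one most studied in cancer, had an FPKM of 49.12 in DMSO, 50.90 at 100 nM and 53.71 at 200 nM at 24 h, and 64.74, 72.43 and 60.26 in the same order at 48 h (hg19 chromosome 19, 41836436 to 41859838, minus strand). All 3 libraries of 48 h lay above all 3 of 24 h. Its log2 differences from DMSO of the same time were 0.05 and 0.13 at 24 h, then 0.16 and -0.10 at 48 h, for 100 nM and 200 nM, all smaller than the 0.39 between the DMSO libraries. Against the DMSO library of the other time, they were -0.34 and -0.26 for the 24 h libraries and 0.55 and 0.29 for those of 48 h, so the sign at 24 h turned. Relative to TGFB1, TGFB2 was closest at 200 nM. TGFB1 exceeded TGFB2 by 2.07-fold in DMSO 24 h and 1.96-fold in DMSO 48 h, by 1.13-fold and 1.20-fold in the 200 nM libraries of 24 h and 48 h, and by 1.39-fold and 2.60-fold in those of 100 nM. TGFB2 thus held 46.7% and 45.3% of the summed FPKM of the 3 TGFB genes at 200 nM, against 32.4% and 33.6% in DMSO. At 100 nM the share was 41.7% at 24 h and 27.7% at 48 h. Each share compares genes within a library, but setting 200 nM against DMSO still rests on the DMSO libraries.

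The remaining ligands were scarcely expressed. TGFB3, whose product signals through the same receptors, lay between 0.32 FPKM (100 nM, 48 h) and 0.51 (200 nM, 24 h), while the intervals of all 5 pairs of neighbouring libraries overlapped. INHBA, which encodes the subunit of activin A, was at 0.05 in DMSO, 0.18 at 100 nM and 0.18 at 200 nM at 24 h. At 48 h it was listed at 0 in DMSO, at 0.03 at 100 nM and at 0.32 at 200 nM. In each library INHBA was below 1 FPKM, so no fold is given for it.

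**Figure D1:**
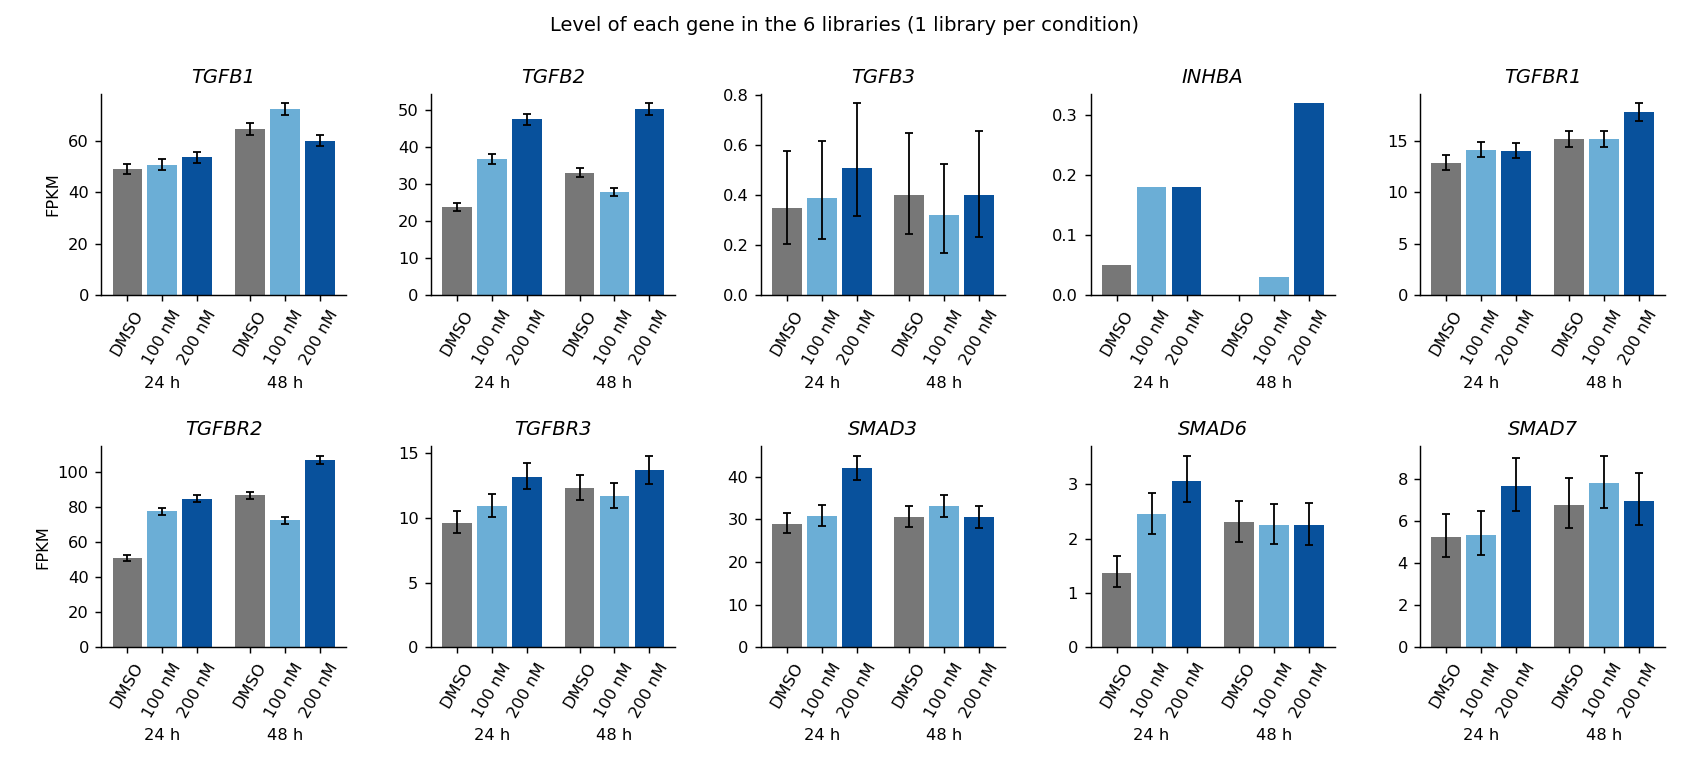
FPKM of the 10 genes (vertical axes, each from 0) in the 6 libraries, with DMSO in grey, 100 nM in light blue and 200 nM in dark blue, 24 h on the left and 48 h on the right of each panel. Bars are 1 library each and error bars are 95% Poisson intervals for counting error, not drawn for INHBA; DMSO 24 h is the lowest library for the 8 genes that reach 1 FPKM, and TGFB2 and TGFBR2 peak at 50.25 and 106.88 at 200 nM 48 h.

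Among the receptors, TGFBR2 was the most abundant and varied most. TGFBR2, the type II receptor that binds ligand and starts the signal, had an FPKM of 51.04 in DMSO, 77.53 at 100 nM and 84.64 at 200 nM at 24 h, and 86.74, 72.43 and 106.88 at 48 h (hg19 chromosome 3, 30647994 to 30735634, plus strand). DMSO 24 h was the lowest and 200 nM 48 h the highest, and DMSO 48 h lay above both treated libraries of 24 h. The log2 differences from DMSO of the same time were 0.59 at 100 nM and 0.72 at 200 nM at 24 h, then -0.26 and 0.30 at 48 h. The DMSO libraries differed by 0.75, more than any treated library differed from its own DMSO. Set against DMSO 48 h instead, the 24 h libraries were lower by small amounts, at -0.16 for 100 nM and -0.03 for 200 nM, so the direction at 24 h turned with the choice of DMSO library. Set against DMSO 24 h, the 48 h libraries were higher, by 0.50 at 100 nM and 1.05 at 200 nM. At equal times, 200 nM was above 100 nM by 0.13 at 24 h and 0.55 at 48 h. The order of levels was clear of counting error at all neighbouring pairs of libraries but 200 nM 24 h and DMSO 48 h.

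TGFBR1, the type I receptor kinase that phosphorylates SMAD2 and SMAD3, had an FPKM of 12.92, 14.16 and 14.05 at 24 h, then 15.22, 15.17 and 17.82 at 48 h, in the order DMSO, 100 nM and 200 nM (hg19 chromosome 9, 101867371 to 101916474, plus strand). Only 200 nM 48 h stood apart from its neighbour in level beyond the intervals. Between libraries further apart, DMSO 24 h, at 12.23 to 13.64, was clear of DMSO 48 h, at 14.46 to 16.01. Its log2 differences from DMSO of the same time ran from 0.00 to 0.21, and with the DMSO libraries exchanged they were -0.10 and -0.11 at 24 h, then 0.22 and 0.44 at 48 h, for 100 nM and 200 nM. TGFBR2 exceeded TGFBR1 by 3.95-fold in DMSO 24 h and by 4.77-fold to 6.02-fold in the other libraries. TGFBR3, or betaglycan, a co-receptor that presents TGF-beta2 to the signalling receptors, had an FPKM of 9.61, 10.91 and 13.15 at 24 h, then 12.27, 11.67 and 13.67 at 48 h, in the same order of treatment. The 200 nM library was the highest at each time, but no pair of neighbouring libraries was separated beyond counting error. Libraries further apart in level could be, as with DMSO 24 h, at 8.78 to 10.49, and 200 nM 24 h, at 12.17 to 14.20. Against DMSO 24 h, 200 nM was higher by 0.42 at 24 h, and against DMSO 48 h it was higher by 0.14 at 48 h. For 100 nM the differences were 0.17 at 24 h and -0.07 at 48 h. With the DMSO libraries exchanged, TGFBR3 stood at -0.16 and 0.09 at 24 h and at 0.26 and 0.47 at 48 h, for 100 nM and 200 nM.

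Of the SMADs, SMAD3, which carries the signal to the nucleus, was highest at 200 nM 24 h. Its FPKM measured 28.96 in DMSO, 30.82 at 100 nM and 41.97 at 200 nM at 24 h, and 30.60, 33.12 and 30.56 at 48 h (hg19 chromosome 15, 67358195 to 67487533, plus strand). The library of 200 nM 24 h lay apart from the others, which spanned 28.96 to 33.12 with overlapping intervals between neighbours. The log2 difference at 200 nM 24 h was 0.52 against DMSO 24 h and 0.44 against DMSO 48 h, so it kept its direction with either reference. It was 0.43 above 100 nM 24 h. At 100 nM 24 h, SMAD3 differed by 0.09 from DMSO 24 h and by 0.01 from DMSO 48 h. At 48 h the differences were 0.11 at 100 nM and 0.00 at 200 nM, and against DMSO 24 h they were 0.19 and 0.08. SMAD3 exceeded SMAD2, the other SMAD activated by TGFBR1, by 2.81-fold to 3.60-fold in FPKM across the libraries, the highest ratio being at 200 nM 24 h.

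SMAD6 and SMAD7, the inhibitory SMADs, were expressed at lower levels. SMAD6, which acts mainly against BMP receptors, had an FPKM of 1.37 in DMSO, 2.45 at 100 nM and 3.07 at 200 nM at 24 h, and 2.30, 2.25 and 2.25 at 48 h (hg19 chromosome 15, 66994674 to 67074338, plus strand). DMSO 24 h lay below the other libraries, the interval of 1.11 to 1.68 clear of the rest, and the 48 h libraries were level. The log2 differences were 0.54 and 0.78 at 24 h, then -0.02 and -0.02 at 48 h. Because SMAD6 is close to the pseudocount of 1, these understate its ratio, which was 2.24 in FPKM at 200 nM 24 h, and with a pseudocount of 0.1 its difference there was 1.11. Against DMSO 48 h, it was higher by 0.06 (100 nM) and 0.30 (200 nM) at 24 h, while against DMSO 24 h both 48 h doses were higher by 0.46. The sequence upstream of SMAD6 is shown because, of the genes here, its window alone held the palindromic SMAD element (chr15:66701986-66702235, plus strand, GRCh38.p14, with capitals as above).
SMAD6: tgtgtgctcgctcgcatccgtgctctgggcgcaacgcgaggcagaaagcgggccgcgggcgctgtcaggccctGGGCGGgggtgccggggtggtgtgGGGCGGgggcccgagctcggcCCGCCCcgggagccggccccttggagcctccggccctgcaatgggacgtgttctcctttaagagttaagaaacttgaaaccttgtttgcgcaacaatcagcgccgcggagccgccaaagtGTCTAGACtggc
GTCTAGAC began 12 bases before the start and was found in 0.182% of all windows, and GGGCGG was found 3 times. The letters say nothing of whether the element was bound in these cells.

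SMAD7, which blocks TGFBR1 and is a direct target of the pathway, had an FPKM of 5.26, 5.36 and 7.65 at 24 h, then 6.77, 7.80 and 6.94 at 48 h, in the order DMSO, 100 nM and 200 nM (hg19 chromosome 18, 46446223 to 46477081, minus strand). Its intervals overlapped for all neighbouring libraries, while those of DMSO 24 h, 4.30 to 6.32, and 200 nM 24 h, 6.50 to 8.99, did not overlap. The log2 differences were 0.02 and 0.47 at 24 h, then 0.18 and 0.03 at 48 h, and 200 nM was above 100 nM by 0.44 at 24 h and below it at 48 h, at -0.15. With the DMSO libraries exchanged, SMAD7 stood at -0.29 and 0.15 at 24 h and at 0.49 and 0.34 at 48 h. SMAD3 exceeded SMAD7 by 4.25-fold to 5.75-fold in FPKM.

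Read together, none of the 10 genes passed 2-fold in FPKM + 1 in any of the 7 comparisons, in which 8 of the 10 were tested. This count depends on the pseudocount of 1. The plain FPKM ratio at 200 nM 24 h was 2.24 for SMAD6 and 2.0 for TGFB2. Over all genes tested, 1.48% and 5.96% passed 2-fold in either direction at 24 h, for 100 nM and 200 nM. The shares at 48 h were 0.469% and 0.266%. The share was 2.62% between the DMSO libraries, and 0.524% and 2% between the doses at 24 h and 48 h. A count of 0 among 8 is close to these background shares. At 1.5-fold, TGFB2 and TGFBR2 were higher at 100 nM 24 h, where 5.58% of all genes tested were higher by that much. TGFB2, TGFBR2 and SMAD6 were higher at 200 nM 24 h, where 12.5% of genes were, and TGFB2 was higher at 200 nM 48 h, where 1.53% were. TGFBR2 was higher in DMSO 48 h against DMSO 24 h, where 8.51% were, and TGFB2 at 200 nM against 100 nM at 48 h, where 5.6% were. At 100 nM 48 h and between the doses at 24 h, 0 of the 8 were 1.5-fold higher, with 0.504% and 3.09% over all genes.

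**Figure D2:**
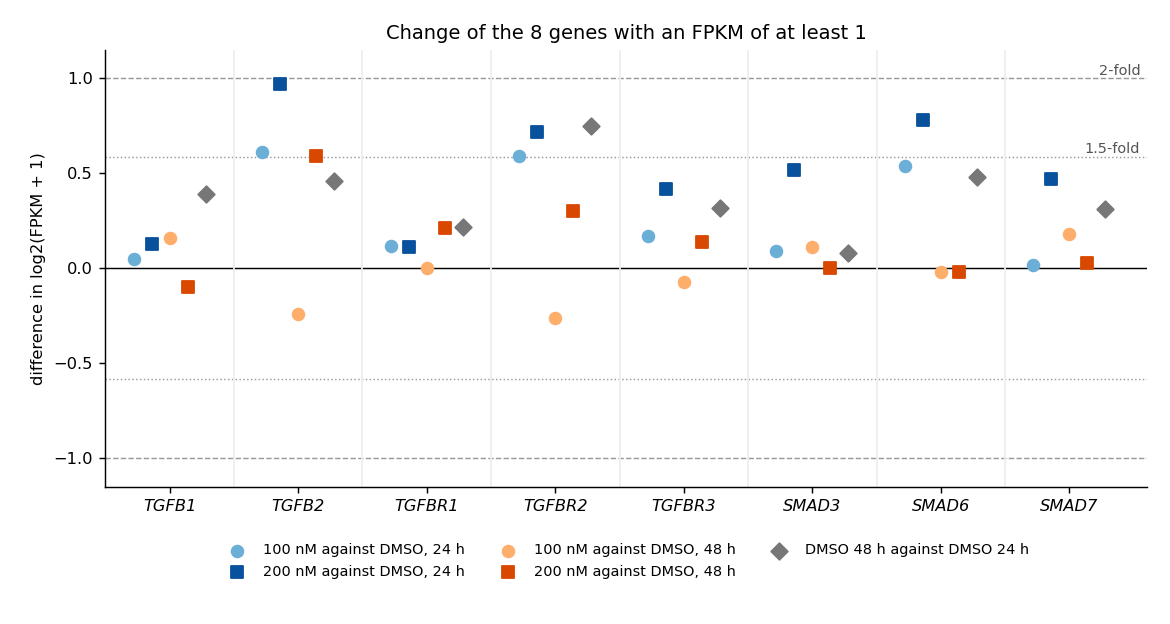
Difference in log2(FPKM + 1) (vertical axis) of the 8 genes that reach 1 FPKM in the 4 comparisons with DMSO of the same time and between the DMSO libraries, each symbol 1 pair of libraries; dashed and dotted lines mark 2-fold and 1.5-fold. No symbol reaches 2-fold, TGFB2 at 200 nM 24 h coming nearest at 0.97, and the grey diamonds of DMSO 48 h against DMSO 24 h all lie above 0.

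The direction of the 8 tested genes was uniform at 24 h in FPKM as deposited. All 8 were above 0 at both doses, with medians of 0.14 at 100 nM and 0.49 at 200 nM, while 51.6% and 51.2% of all genes tested were above 0 with a median of 0.01. At 100 nM, TGFB1 and SMAD7 were close to 0, at 0.05 and 0.02. Scaled by median-of-ratios factors, an alternative, they were at -0.01 and -0.03, so the direction at that dose was then not uniform. Both comparisons with DMSO at 24 h share the DMSO 24 h library, and so does DMSO 48 h against DMSO 24 h, where all 8 were again above 0 with a median of 0.36. DMSO 24 h was the lowest of the 6 libraries for each of the 8, and for 27.1% of the 11893 genes that reached 1 FPKM in any library. At 48 h, 3 of the 8 were above 0 at 100 nM, with a median of -0.01, and 5 of the 8 at 200 nM, with a median of 0.09. With the DMSO libraries exchanged, the medians were -0.13 and 0.12 at 24 h, then 0.36 and 0.45 at 48 h, for 100 nM and 200 nM. The median of the 8 genes at 24 h was thus larger against DMSO 24 h than against DMSO 48 h at both doses, and at 100 nM it turned negative against DMSO 48 h.

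A comparison of doses uses no DMSO library, but at 48 h it rests on the 100 nM library whose position was described above. At 24 h, 7 of the 8 tested genes were higher at 200 nM than at 100 nM, TGFBR1 being the exception at -0.01, with a median of 0.24 against 0.00 over all genes. At 48 h, TGFB2, TGFBR2, TGFBR1 and TGFBR3 were higher at 200 nM, by 0.83, 0.55, 0.22 and 0.21. TGFB1, SMAD7 and SMAD3 were lower, at -0.26, -0.15 and -0.11, and SMAD6 had the same FPKM at both doses. Measured from DMSO 48 h in place of 100 nM 48 h, the 200 nM library was higher by 0.59 for TGFB2 and 0.30 for TGFBR2. TGFB2 and the 3 receptors therefore lay above 100 nM in the 200 nM library at 48 h, while SMAD3, SMAD6 and SMAD7 did not.

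**Figure D3:**
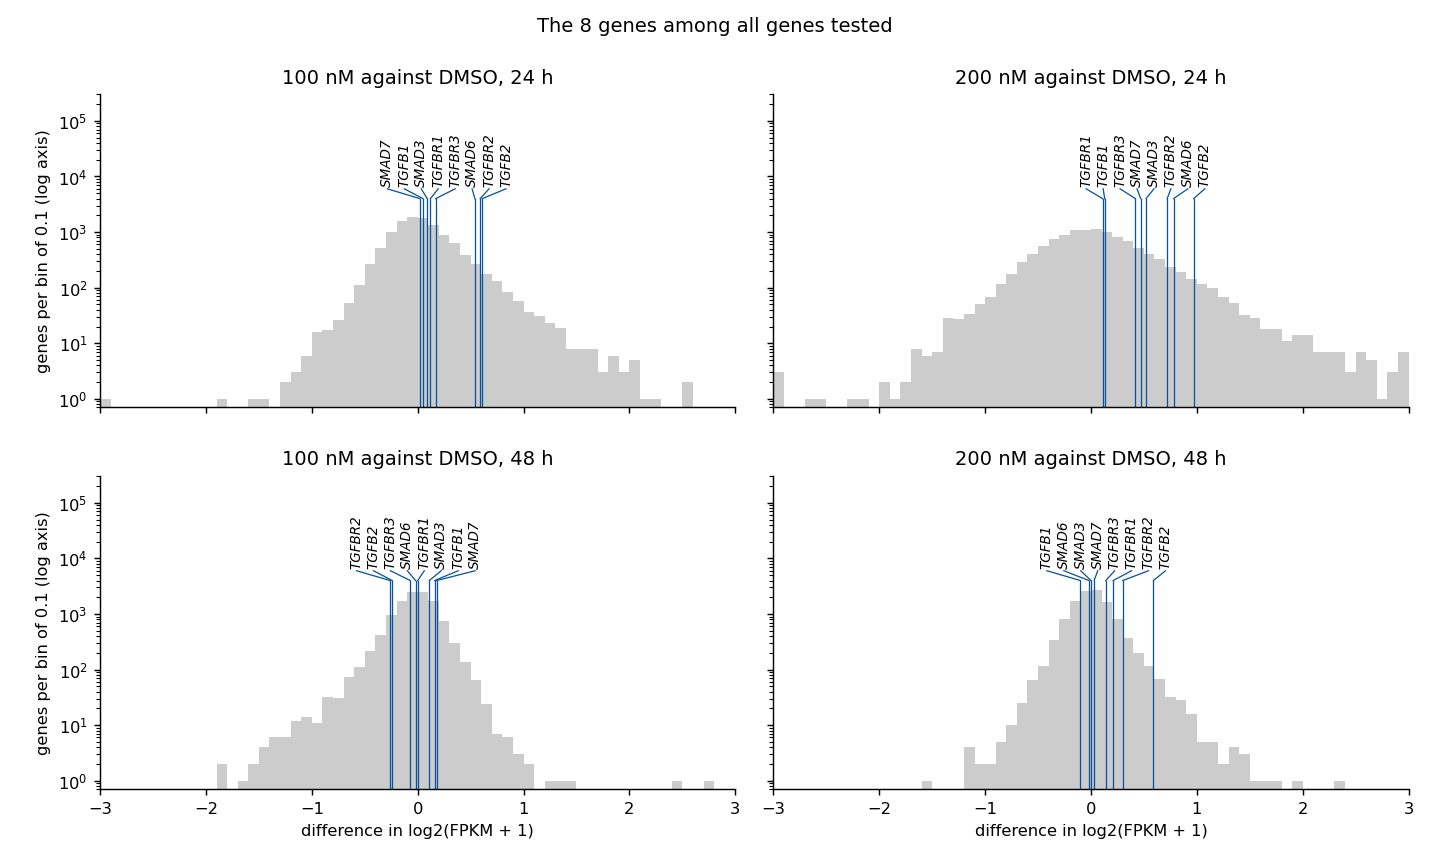
Number of genes (vertical log axis) by difference in log2(FPKM + 1) in bins of 0.1 (horizontal axis, values beyond 3 in either direction placed in the outermost bins) for all genes tested in the 4 comparisons with DMSO of the same time, with blue lines at the 8 genes. At 200 nM 48 h TGFB2 lies in the upper tail, with 1.48% of genes at least as high, while at 200 nM 24 h 4.79% were at least as high.

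The genes with profiles most like those of TGFB2 and TGFBR2, which varied most, were sought over the 6 libraries among 11418 genes by the root mean square distance between centred log2(FPKM + 1) values. LRRC1 was nearest to TGFB2, at 0.0666, followed by SLC25A27, FRMD4A, IGSF3 and TNFRSF21, the last a death receptor. LRRC1 had an FPKM of 4.03, 6.67 and 9.09 at 24 h, then 6.66, 4.91 and 8.88 at 48 h, in the order DMSO, 100 nM and 200 nM. CRADD, an adaptor in cell death signalling, was nearest to TGFBR2, at 0.0428, followed by GPR37, ITGA6, an integrin subunit that binds laminin, ZNF608 and PIP4K2C. ITGA6 had an FPKM of 43.27, 63.99 and 67.01 at 24 h, then 72.80, 65.00 and 89.26 at 48 h. The points share libraries and are 6 in number, so this is a description of likeness only.

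The rest of the pathway was read from lists of genes. Over all genes tested, 1.35% at 100 nM and 4.49% at 200 nM were at least 2-fold higher at 24 h, and 0.131% and 1.48% lower. At 48 h, 0.0608% and 0.206% were higher, and 0.408% and 0.06% lower. These shares were taken only against DMSO of the same time, with 1 FPKM in either library. List counts below with the stricter filter or the DMSO library of the other time have no share over all genes beside them. Of 25 genes found from the list of other ligands of the TGF-beta superfamily, 9 were tested at 200 nM 24 h, and 3 of them, BMP2, GDF15 and BMP8B, passed 2-fold. The list holds BMP1, a protease named for its discovery in the same bone extracts and mentioned here after its values were seen. Without BMP1, 8 were tested with a median of 0.87, against 0.01 over all genes. Some of these, GDF15 among them, passed the minimum of 1 FPKM only in the library where they were higher. With 1 FPKM required in both libraries, 7 were tested, 2 passed and the median was 0.73. Between the DMSO libraries, 2 of 8 were higher at 48 h, with a median of 0.46. Against DMSO 48 h, the median at 200 nM 24 h was 0.14, with 0 higher and 1 lower of 9. BMP2, a bone morphogenetic protein, had an FPKM of 1.32, 3.24 and 6.02 at 24 h, then 4.37, 3.07 and 5.63 at 48 h, in the order DMSO, 100 nM and 200 nM, which is kept for the genes that follow. It was higher by 1.60 at 200 nM 24 h and by 0.30 at 200 nM 48 h, and lower at 100 nM 48 h, at -0.40, the same order of libraries within each time as for TGFB2. Most of the 523 genes described above also lay above DMSO at 200 nM 48 h and below it at 100 nM 48 h. GDF15, a stress-induced ligand of the family, had 0.73, 1.42 and 3.29 at 24 h, then 10.20, 6.84 and 10.82 at 48 h, so that every 48 h library exceeded every 24 h library. BMP8B was higher by 1.09 at 200 nM 24 h, but reads of BMP8B and its near-identical neighbour BMP8A may be shared. No other ligand passed 2-fold in a comparison with DMSO of the same time.

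Of 13 other receptors and accessory proteins, 8 were tested at 200 nM 24 h and 1 passed 2-fold. It was BAMBI, a decoy receptor that dampens the signal, with 4.32, 7.03 and 10.14 FPKM at 24 h and 5.79, 3.85 and 7.0 at 48 h. Its log2 differences were 0.59 and 1.07 at 24 h, then -0.49 and 0.24 at 48 h. The median of the list was 0.17 at 200 nM 24 h and 0.09 against DMSO 48 h. The other 5 SMADs were all tested and none passed 2-fold. Their median was -0.19 at 200 nM 24 h, where the values were -0.47 for SMAD1, 0.30 for SMAD2, -0.26 for SMAD4, 0.11 for SMAD5 and -0.19 for SMAD9. Against DMSO 48 h the median was -0.02. SMAD4, the partner common to all the signalling SMADs, ranged from 5.63 FPKM at 200 nM 24 h to 6.94 in DMSO 24 h, and SMAD2 from 9.27 in DMSO 24 h to 11.67 at 200 nM 24 h.

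Genes of the latent complex and its activation moved in both directions. Of 12 tested at 200 nM 24 h, 2 were at least 2-fold higher and 2 at least 2-fold lower, with a median of 0.30. With 1 FPKM required in both libraries, which leaves out ITGB3 at 0.98 in DMSO 24 h, 11 were tested. Of these, 1 was higher and 2 were lower, with a median of 0.28. Between the DMSO libraries, 4 of the 12 were higher at 48 h, with a median of 0.50, and against DMSO 48 h the median at 200 nM 24 h was -0.42, with 1 higher and 2 lower. The direction of this list thus turned with the DMSO library. THBS1, or thrombospondin 1, which can activate latent TGF-beta, had 12.40, 28.24 and 44.91 FPKM at 24 h and 18.79, 11.10 and 32.94 at 48 h. ITGB3, the beta subunit of an integrin that binds the latent complex, had 0.98, 2.86 and 4.62 at 24 h, then 5.34, 2.41 and 10.38 at 48 h. For both genes the 200 nM library was the highest of its time and the 100 nM library lay below DMSO at 48 h. Most of the 523 genes described above had the same directions from DMSO at 48 h. MMP14, a membrane metalloprotease, was lower at 200 nM, with 59.34, 44.18 and 23.35 at 24 h, then 63.65, 68.95 and 50.11 at 48 h, a log2 difference of -1.31 at 24 h and -0.34 at 48 h. NRROS, which tethers latent TGF-beta in myeloid cells, was lower in the same way, at -1.25 and -0.32. LTBP1, also of this list, passed 2-fold at 100 nM 24 h, at 1.03, and differed by 1.77 between DMSO 48 h and DMSO 24 h, the later being higher.

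Of 9 extracellular antagonists found, SOST, a secreted inhibitor of BMP and WNT signalling, had 0.70 FPKM in DMSO, 0.12 at 100 nM and 2.72 at 200 nM at 48 h. SOST was called at 200 nM 48 h, where it reached the minimum of 1 FPKM only in the library in which it was higher. With 1 FPKM required in both libraries, 5 were tested and 0 passed. The median of the list at 200 nM 24 h was -0.02, and -0.19 against DMSO 48 h. None of 22 intracellular regulators found passed 2-fold in any comparison, with 20 tested, and their median was 0.09 at 200 nM 24 h. Against DMSO 48 h it was 0.08, and 1 was then at least 2-fold higher, NEDD4L, a ubiquitin ligase chosen for mention after its values were seen.

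The last list held genes known to respond to TGF-beta. Of 24 tested at 200 nM 24 h, 6 were at least 2-fold higher and 0 lower, with a median of 0.44. At 100 nM 24 h 4 of 23 were higher and 1 lower, with a median of 0.36. At each dose, a gene counted as higher reached 1 FPKM only in the library where it was higher. With 1 FPKM required in both libraries, 5 of 22 were higher and 0 lower at 200 nM 24 h, with a median of 0.40. At 100 nM 24 h 3 of 22 were then higher and 1 lower, with a median of 0.36. At 100 nM 48 h 0 were higher and 1 lower of 23, with a median of -0.20, and at 200 nM 48 h 0 of 24 passed in either direction, with a median of 0.13. Between the DMSO libraries, 7 of 23 were higher at 48 h and 1 lower, with a median of 0.44, the same median as 200 nM had against DMSO at 24 h. Against DMSO 48 h, 2 of 25 were higher and 2 lower at 200 nM 24 h, with a median of -0.04. Against DMSO 24 h, 10 of 24 were higher and 1 lower at 200 nM 48 h, with a median of 0.61. Neither a share nor a median over all genes was taken for these exchanged comparisons, so the counts cannot be judged against a background. TGFBI, a matrix protein named for its induction by TGF-beta, had 1.14, 5.57 and 8.79 FPKM at 24 h and 9.06, 4.34 and 16.43 at 48 h. CCN2, or connective tissue growth factor, had 88.75, 240.28 and 352.80 at 24 h, then 204.78, 80.86 and 294.89 at 48 h, and was the gene called lower at 100 nM 48 h, at -1.33. CDKN1A, the cell cycle inhibitor p21, had 13.18, 30.61 and 48.84 at 24 h, then 44.25, 25.81 and 52.88 at 48 h. COL1A1, a fibrillar collagen chain, was 1.53 higher at 200 nM 24 h. The highest library of each time was again 200 nM for TGFBI, CCN2 and CDKN1A, and their 100 nM library lay below DMSO at 48 h, as for TGFB2 and TGFBR2. This pattern was common. Of the 523 genes at least 2-fold higher at 200 nM 24 h, 498 were above DMSO at 200 nM 48 h. At 100 nM 48 h, 441 of the 523 were below it. A link between the genes named here was not tested.

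Not all of this list moved that way. TAGLN, the gene called lower at 100 nM 24 h and chosen for mention after its values were seen, had 13.33, 6.05 and 7.22 at 24 h, then 2.66, 5.47 and 2.36 at 48 h. Many of these genes also respond to other signals, and some, such as CDKN1A, to HDAC inhibition itself, and which of them acted was not tested. Each of these lists was set beside the median of all genes and not tested as a set, and nothing particular to a list follows from its count.

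**Figure D4:**
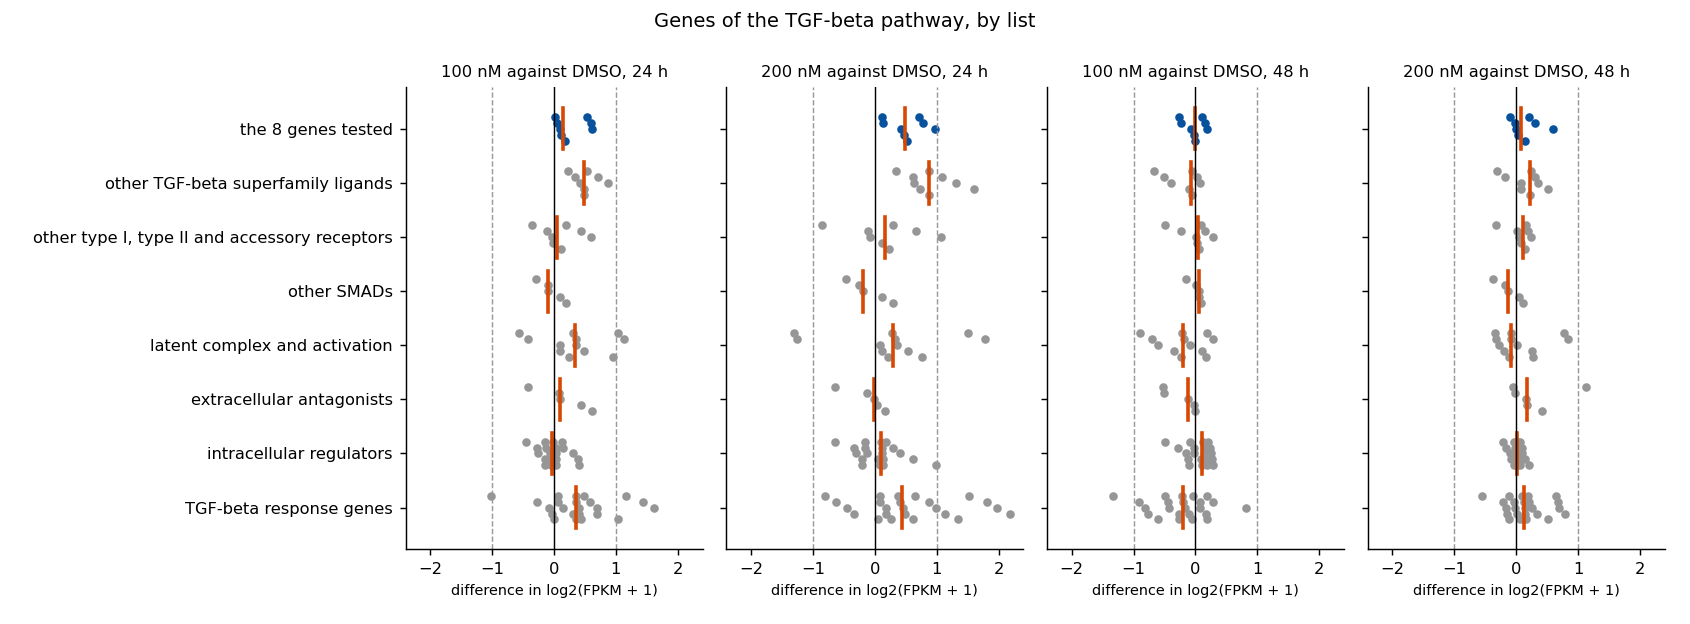
Difference in log2(FPKM + 1) (horizontal axis) of each gene that reaches 1 FPKM in either library, by list (rows), in the 4 comparisons with DMSO of the same time; points are genes, orange lines are medians and dashed lines mark 2-fold. At 200 nM 24 h the medians were 0.49 for the 8 genes, 0.87 for the other ligands, 0.44 for the response genes and -0.19 for the other SMADs.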

How the data were processed

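RNA-seq was made from MDA-MB-231 cells in 6 libraries, 1 per condition. The authors deposited 1 FPKM value per gene and library, rounded to 2 decimals. The submitters' processing notes name Bowtie2, RSEM and the build hg19, without versions, and the strandedness of the libraries is not given in the sources used here. Library construction at a sequencing company included mRNA enrichment or rRNA depletion. Symbols came from the GRCh38.p14 RefSeq table, matched on NCBI Gene ID, which held 16585 of 16623 genes. No other gene of the files overlapped the span of any of the 10 genes.

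The difference in log2(FPKM + 1) was taken between libraries, for genes reaching 1 FPKM in either, and called at 2-fold. The pseudocount of 1 understates the change of low genes. With no replicates or counts, no significance test was run. The depth was inferred from steps between low values of 190 to 267 genes with transcripts of 500 to 1500 bases in GENCODE release 29, at which 3 fragments on 2 kb correspond to 0.0838 to 0.0955 FPKM. The 95% Poisson intervals use these depths and the shortest transcript matched to RefSeq (for TGFB3, which had no match, the longest coding transcript), are approximate and cover counting error only. Where a gene has longer transcripts too, the shortest gives the fewest fragments and so the widest interval. INHBA got none, since its span in the files differs from that in GENCODE. The code that makes the calls was checked on simulated data. The 10 genes and all lists were chosen with earlier results of these data known. Named besides the 10 genes are, per list, at most the 4 with the largest change among those called against DMSO of the same time, every other SMAD, and the 5 genes nearest in profile to the 2 most variable genes, and any others are said to be chosen after their values were seen. LTBP1 was so chosen. Alternatives were pseudocounts of 0.1 and 0.01, leaving out the filter, requiring 1 FPKM in both libraries, TPM, median-of-ratios factors, a 1.5-fold threshold, the mean of both DMSO libraries as the reference and, chosen after seeing the data, the DMSO library of the other time and, for the lists, 1 FPKM in both libraries and leaving out BMP1. Python 3.11.15, numpy 2.4.6, pandas 2.3.3, scipy 1.17.1 and matplotlib 3.10.9 were used. Some genes of the lists are not reported here by name.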

Additional observations from a re-analysis of the deposited data

Results flagged for a closer look

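TGFB2 and TGFBR2 lay on opposite sides of DMSO at the 2 times of 100 nM treatment. TGFB2 differed from DMSO by 0.61 at 24 h and -0.24 at 48 h in log2(FPKM + 1), and TGFBR2 by 0.59 at 24 h and -0.26 at 48 h. With 1 library per condition the difference between the times was not tested. Against the DMSO library of the other time, TGFB2 at 100 nM was at 0.15 and 0.22 and TGFBR2 at -0.16 and 0.50, so the opposite signs of TGFB2 were present with DMSO of the same time and absent with the other, and those of TGFBR2 turned round.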

How the results depend on the processing

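No paired analysis was possible because a condition holds a lone library and nothing was tested. Leaving out a replicate was not possible for the same reason. The number of the 10 genes at least 2-fold higher at 200 nM 24 h, 0 as reported, was 1 (SMAD6) with a pseudocount of 0.1 and 2 (TGFB2 and SMAD6) with 0.01. The share of all genes passing 2-fold was not taken at these pseudocounts, so whether these counts exceed it is not known. With a 1.5-fold threshold the number higher was 2 at 100 nM 24 h, 3 at 200 nM 24 h, 1 at 200 nM 48 h, 1 between the DMSO libraries and 1 between the doses at 48 h. With the mean of both DMSO libraries as the reference, the medians became 0.03 and 0.33 at 24 h, then 0.13 and 0.26 at 48 h, for 100 nM and 200 nM. With the DMSO library of the other time, they became -0.13 and 0.12 at 24 h, then 0.36 and 0.45 at 48 h, and TGFB2 and TGFBR2 at 200 nM 48 h passed 2-fold, both at 1.05. No share over all genes was taken with that reference either. Of 56 single values, 3 moved by over 0.1 with each lower pseudocount and 3 with TPM, all of SMAD6, and 0 with no filter, with the stricter filter and with median-of-ratios factors. Of 32 values against DMSO, 28 moved by over 0.1 with the mean reference and 28 with the DMSO library of the other time, and 8 and 14 had the opposite sign. With median-of-ratios factors, 2 of 56 had the opposite sign, TGFB1 at -0.01 and SMAD7 at -0.03 at 100 nM 24 h. The cause was not tested. INHBA, at 0.32 FPKM or less, and TGFB3, at 0.51 or less, are limited by depth, and counting intervals leave out the variation between cultures.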
